A study of Mus musculus with 10 samples.

Results

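The cytochrome P450 genes were examined for 2 histone modifications around their transcription start site (TSS) in the developing mouse retina. Members were all symbols of the deposited table made of Cyp, a family number, a subfamily letter and a gene number, other than Cyp26a1 and Cyp26c1, and where a symbol was listed more than once, the listing with the highest total over the 8 libraries stood for it. This gave 95 of the 20045 symbols, from 102 entries. They belong to 16 P450 families, with 48 members in family 2, 19 in family 4 and 9 in family 3. The symbols themselves were chosen by name.

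P450 enzymes are heme proteins of the endoplasmic reticulum or the mitochondrion that insert 1 atom of molecular oxygen into their substrate, with electrons supplied by P450 oxidoreductase or by ferredoxin. Members of families 1, 2 and 3 metabolize drugs and other foreign compounds, mostly in the liver, and many of them lie in tandem arrays that arose by duplication. Family 4 enzymes hydroxylate fatty acids, and most of the remaining families act on cholesterol, bile acids, steroid hormones, vitamin D or retinoic acid. H3K4me2, dimethylation of lysine 4 of histone H3, is found at active and permissive promoters, and H3K27me3, trimethylation of lysine 27, is laid down by Polycomb repressive complex 2 at silenced ones. Genes of other tissues often carry neither mark.

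Chromatin immunoprecipitation with sequencing (ChIP-Seq) for each mark was performed on retinas at the embryonic stage E17.5, written E17 in the sample titles, and on postnatal days 1, 7 and 15 (PN1, PN7, PN15), each stage and mark being a single library, 8 in all. Retinas were pooled, at least 20 at a stage. The study's methods name C57BL/6j and rd1/rd1 mice, and its text treats these 8 libraries as wild type, whereas the strain label reads Pde6b (rd1/rd1) mutant mice for every library, a strain that loses its rods. The catalogue numbers of the antibodies are also exchanged between the labels and the methods. There is no second library for any mark and stage, so a difference between stages has no replicate check and no p-value is given. Each value is a normalized occupancy, the reads within 2.5 kb of the TSS scaled to the mapped total of that library and rounded by the authors to a whole number. The window is the same length for every gene, so levels of the same mark can be set side by side between genes. Intervals in brackets are exact Poisson 95% intervals, which cover counting error only. They use the occupancy worth of 1 read, which the rounding pattern of the values gave as 0.313 to 0.946 in 5 libraries. No such pattern was found in the PN7 and PN15 libraries of H3K4me2 and the E17.5 library of H3K27me3, where 1 read was taken as 1 unit, the largest worth that the values allow, so that the intervals there are the widest possible. A listed 0 in H3K4me2 at PN7 therefore has an interval of 0 to 3.69. The name of the deposited H3K27me3 column at PN7 ends its mark with a letter b, unlike the others, and what the letter stands for is not given in the sources used here. That library had the lowest worth of 1 read, 0.313.

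A set of 6 P450 promoters is shown first because they stand for the different combinations of marks found among the members. Each is the 250 bases before the TSS, 5′ to 3′ on the gene's strand, with the letters from RefSeq (promoters of GRCm38.p6) and the position from an exact match to the mouse genome build mm9, and with each CpG dinucleotide in capitals. Cyp46a1, cholesterol 24-hydroxylase (chr12:109572276-109572525, plus strand), carried H3K4me2 and little H3K27me3 and has 23 CpG in these bases. Cyp1b1, which acts on estrogens and retinoids (chr17:80114402-80114651, minus strand), carried both marks and has 12. Cyp2s1 (chr7:26601545-26601794, minus strand), with 15, and Cyp27b1, the enzyme that makes active vitamin D (chr10:126485052-126485301, plus strand), with 1, carried high H3K27me3. Cyp4b1 (chr4:115320327-115320576, minus strand), with 3, gained H3K27me3 between stages. Cyp2c29 (chr19:39361325-39361574, plus strand), a drug-metabolizing enzyme with 0, stayed near the level of genes silent in retina.
Cyp46a1: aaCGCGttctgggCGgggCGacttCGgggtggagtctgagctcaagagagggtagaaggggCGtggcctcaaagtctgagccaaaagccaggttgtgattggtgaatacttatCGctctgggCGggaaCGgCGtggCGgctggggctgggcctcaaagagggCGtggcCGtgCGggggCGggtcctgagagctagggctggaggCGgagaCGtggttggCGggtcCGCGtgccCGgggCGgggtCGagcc
Cyp1b1: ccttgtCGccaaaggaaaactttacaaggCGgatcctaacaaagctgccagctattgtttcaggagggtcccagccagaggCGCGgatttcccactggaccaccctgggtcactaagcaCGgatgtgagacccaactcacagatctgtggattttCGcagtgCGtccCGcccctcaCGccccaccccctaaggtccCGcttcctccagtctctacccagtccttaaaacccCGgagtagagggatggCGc
Cyp2s1: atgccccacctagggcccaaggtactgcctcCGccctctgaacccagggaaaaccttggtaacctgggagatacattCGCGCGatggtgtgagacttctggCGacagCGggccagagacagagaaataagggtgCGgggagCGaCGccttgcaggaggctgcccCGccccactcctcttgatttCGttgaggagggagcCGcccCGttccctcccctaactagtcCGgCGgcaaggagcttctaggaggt
Cyp27b1: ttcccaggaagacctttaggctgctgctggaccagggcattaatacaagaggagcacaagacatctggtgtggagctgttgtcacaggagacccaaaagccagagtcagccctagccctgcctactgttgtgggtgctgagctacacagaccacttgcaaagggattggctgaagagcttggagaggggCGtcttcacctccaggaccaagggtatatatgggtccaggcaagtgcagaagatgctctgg
Cyp4b1: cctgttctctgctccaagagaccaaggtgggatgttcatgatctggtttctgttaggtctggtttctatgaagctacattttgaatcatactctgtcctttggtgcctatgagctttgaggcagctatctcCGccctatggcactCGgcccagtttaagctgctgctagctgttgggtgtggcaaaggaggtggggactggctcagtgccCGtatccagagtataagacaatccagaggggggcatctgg
Cyp2c29: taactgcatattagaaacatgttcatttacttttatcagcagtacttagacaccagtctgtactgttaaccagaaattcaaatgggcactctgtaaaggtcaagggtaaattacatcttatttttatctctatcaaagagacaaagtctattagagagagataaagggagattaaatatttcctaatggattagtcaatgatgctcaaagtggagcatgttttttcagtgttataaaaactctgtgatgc

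The median P450 gene carried little H3K4me2. To set a level, the 1047 olfactory receptor symbols, genes of the nose, were taken as silent in retina, and a value was called above the reference level when it exceeded the 95th percentile of these symbols in the same library. Over the stages, from E17.5 to PN15, that percentile was 4, 8, 1 and 7 for H3K4me2 and 21, 22, 22.7 and 29 for H3K27me3. H3K4me2 was above it in all 4 libraries at 21 members, or 22.1%, against 66.9% of all symbols, and in no library at 51 members, or 53.7%, against 19.6% of all symbols. The median H3K4me2 of the members was 3, 5, 0 and 4 over the 4 stages, where the median of all symbols was 41, 27, 24 and 42. H3K27me3 was above its reference level in all 4 libraries at 11 members, or 11.6%, against 15.5% of all symbols, and in no library at 68, or 71.6%, against 69.5%. The members' H3K27me3 medians of 12, 11, 7 and 15 lay near those of all symbols, 11, 10, 9 and 10. The P450 genes thus lay well below the other genes in H3K4me2 and near them in H3K27me3.

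Neither mark was above the reference level in any library at 40 members, or 42.1%, against 16.9% of all symbols. This count depended on the level chosen, with 63 members at the 99th percentile and 25 with the 95th percentile of 296 vomeronasal receptor symbols, at which H3K27me3 was above in all 4 libraries at 20 members. Among the members it also moved with how unique the sequence around the TSS is, and the authors had removed reads with several positions; the part of that removal in the count was not tested. Uniqueness was taken as the share of 32-base words in the 5 kb window that occur once in mm9, for the 92 members with a window there and, at GENCODE starts, for the other symbols (19474 in all). At least 90% of the words were unique at 46 of the 92 members, or 50%, against 79.5% of all symbols. Within such windows, 7 of 46 members, or 15.2%, had neither mark, against 11.1% of all symbols, and in the less unique windows 30 of 46, or 65.2%, against 37.7%. Among the olfactory receptors the shares were 83.7% and 83.8%. Within the unique windows H3K4me2 was above in all 4 libraries at 18 of 46 members, or 39.1%, against 74.6%, and in none at 12, or 26.1%, against 13.2%. H3K27me3 was above in all 4 there at 9 of 46, or 19.6%, against 18.4%. These groups of windows were formed after the values were seen. Both marks were above in all 4 libraries at 6 members, or 6.32% against 12.1%, namely Cyp24a1, Cyp27b1, Cyp1b1, Cyp1a1, Cyp27a1 and Cyp4x1. H3K4me2 in all 4 with H3K27me3 in none was found at 12 members, or 12.6% against 44.3%. H3K27me3 in all 4 with H3K4me2 in 3 or fewer was found at 5 members, or 5.26% against 3.4%, namely Cyp2s1, Cyp4f39, Cyp4f14, Cyp17a1 and Cyp3a13. In single libraries, H3K4me2 was above at 39 members at E17.5 (41.1% against 77.2% of all symbols), at 25 at PN1 (26.3% against 72.0%), at 25 at PN7 (26.3% against 72.1%) and at 27 at PN15 (28.4% against 70.9%). H3K27me3 was above at 21 members at E17.5 (22.1% against 24.3%), 14 at PN1 (14.7% against 24.8%), 18 at PN7 (18.9% against 24.3%) and 16 at PN15 (16.8% against 19.3%). Some members were above in part of the libraries, for H3K4me2 in 3 libraries at 3 members (3.16% against 3.97%), in 2 at 3 members (3.16% against 3.23%) and in 1 at 17 members (17.9% against 6.34%). For H3K27me3 the same counts were 3 (3.16% against 5.61%), 3 (3.16% against 4.49%) and 10 (10.5% against 4.91%). H3K4me2 in all 4 libraries with H3K27me3 in 1 to 3 was found at Cyp26b1, Cyp4v3 and Cyp4f13, 3.16% against 10.5%.

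**Figure D1:**
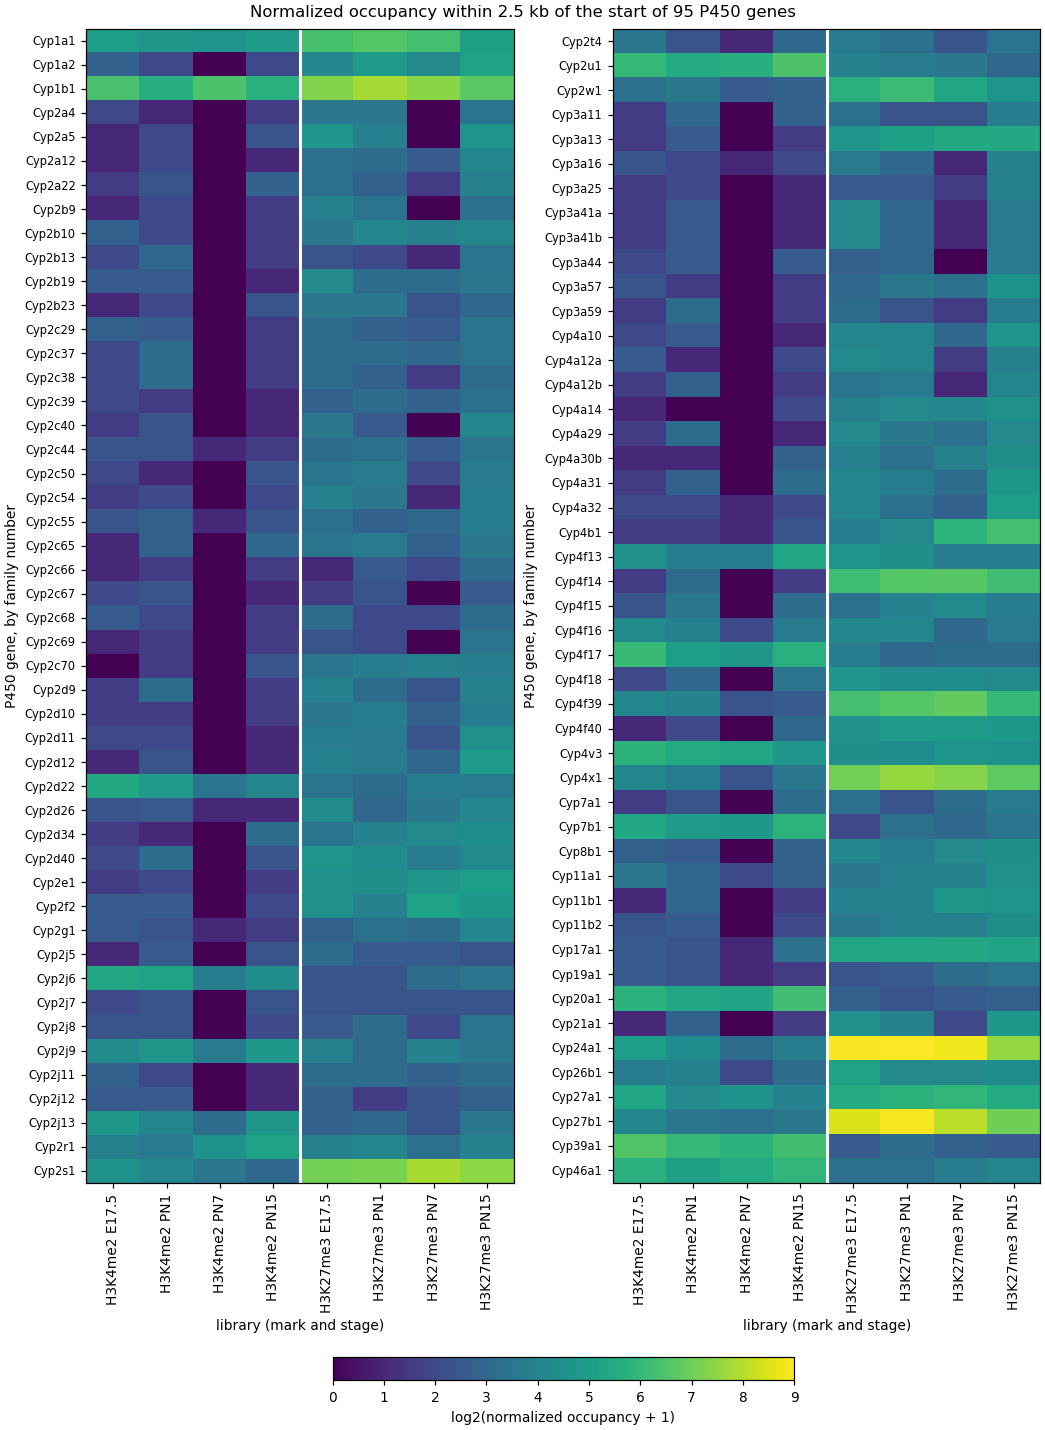
Normalized occupancy of H3K4me2 (left of the white line) and H3K27me3 (right of it) at the 95 P450 genes, in rows by family number and columns by library, as log2(occupancy + 1). Families 2 and 3 are mostly dark in H3K4me2, 60 members are at 0 in H3K4me2 at PN7, and Cyp24a1 has the highest H3K27me3 in every library.

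In the libraries as a whole, H3K4me2 at PN7 stood apart by its zeros, with 19.5% of all entries at 0 against 0.362% to 2.52% in the other H3K4me2 libraries. Rod markers (Nrl, Crx, Sag, Pde6b, Gnat1) rose past 2-fold in H3K4me2 between E17.5 and PN15 at 5 of 5 genes, their summed H3K4me2 being 85, 93, 90 and 527 over the stages. For Mueller glia (Rlbp1, Glul, Slc1a3) the sums were 204, 156, 139 and 178, with 2 of 3 genes above the reference level in all 4 libraries. Rlbp1 had H3K4me2 of 37, 26, 9 and 6 and H3K27me3 of 8, 11, 55 and 136. No marker of retinal pigment epithelium (Rpe65, Best1, Tyr), endothelium (Pecam1, Cdh5, Tie1) or microglia (Aif1, Csf1r, Cx3cr1) was above it in all 4, with summed H3K4me2 of 0 to 11, of 6 to 29 and of 4 to 18. All 3 pigment epithelium markers were at 0 at PN7. Of the hepatocyte genes (Alb, Apoa1, Ttr), Apoa1 alone was above in all 4 libraries and Alb was above in none, at 4, 4, 1 and 0. Their summed H3K4me2 was 47, 34, 24 and 15 and their summed H3K27me3 24, 52, 91 and 97. In whole retinas, fewer cells with a mark and less of the mark per cell cannot be told apart.

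To set beside the counts in each class, 66.9% of all symbols had H3K4me2 and 15.5% had H3K27me3 above in all 4 libraries, and 16.9% had neither mark in any. Of the 3 vitamin D enzymes, 2 held the highest H3K27me3 of all members at E17.5, PN1 and PN7. Cyp24a1, the mitochondrial 24-hydroxylase that inactivates the hormone, had H3K27me3 of 488 (446 to 533) at E17.5, 563 (522 to 607) at PN1, 450 (427 to 474) at PN7 and 187 (163 to 214) at PN15, with H3K4me2 of 31, 20, 8 and 13. Cyp27b1, the 1-alpha-hydroxylase that activates it, stood at 364, 467, 267 and 133 in H3K27me3 and at 17, 11, 9 and 11 in H3K4me2. In both genes H3K27me3 was lowest at PN15. The 5 kb window of Cyp24a1 also holds the start of Pfdn4, so its reads cannot be assigned to 1 of these genes. Cyp2r1, the 25-hydroxylase that acts first in the pathway, differed from both. Its H3K27me3 was 14, 16, 9 and 15, below the reference level in every library, and its H3K4me2 was 14 (9.1 to 20.4), 12 (6.55 to 21), 23 (14.6 to 34.5) and 35 (24.4 to 48.7).

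Family 1, the enzymes induced through the aryl hydrocarbon receptor, carried both marks in 2 of its 3 genes. Cyp1b1, whose human counterpart is mutated in congenital glaucoma, had H3K4me2 of 84 (71.5 to 98.4), 50 (37.6 to 65.6), 86 (68.8 to 106) and 51 (38 to 67.1) and H3K27me3 of 156, 222, 170 and 102. It was the member with the most H3K4me2 at PN7. Cyp1a1 had H3K4me2 of 31, 26, 24 and 30 and H3K27me3 of 83, 96, 78 and 34. A second entry of Cyp1a1 had H3K4me2 of 2, 9, 1 and 5 and H3K27me3 of 17, 21, 19 and 19, so both marks were high at only 1 of the 2 entries. Cyp1a2, the neighbour of Cyp1a1, had H3K4me2 of 6, 3, 0 and 3 and H3K27me3 of 17, 28, 18 and 36.

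Among the 6 bile acid and cholesterol enzymes, 4 were above the reference level in H3K4me2 in all 4 libraries, a share close to the 66.9% of all symbols. Cyp46a1, which turns over cholesterol in neurons, had H3K4me2 of 52, 34, 44 and 60 with H3K27me3 of 9, 9, 13 and 16. Cyp39a1, an oxysterol 7-alpha-hydroxylase, had the highest H3K4me2 of all members at E17.5 and PN1, with 93, 65, 53 and 76 and H3K27me3 of 5 to 8. Its window also contains the start of Slc25a27. Cyp7b1, a second oxysterol 7-alpha-hydroxylase, had H3K4me2 of 40, 29, 27 and 56 and H3K27me3 of 3, 9, 7 and 10. Cyp27a1, the mitochondrial sterol 27-hydroxylase, was the one enzyme of this class with H3K27me3 in all 4 libraries, at 46, 54, 59 and 44, beside H3K4me2 of 38, 18, 23 and 15. The remaining members of the class, Cyp7a1 and Cyp8b1, which make bile acids in the liver, reached at most 8 in H3K4me2.

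Of the 19 genes of family 4, 5 were above in H3K4me2 in all 4 libraries, against 66.9% of all symbols, 3 in H3K27me3, close to the 15.5% of all symbols, and 5 in neither mark in any library, against 16.9%. Cyp4v3, the mouse counterpart of the gene mutated in Bietti crystalline dystrophy of the retina, had H3K4me2 of 54 (44.1 to 65.8), 44 (32.7 to 59.1), 38 (26.9 to 52.2) and 25 (16.2 to 36.9) and H3K27me3 of 21, 20, 25 and 23. Cyp4x1 had the highest H3K27me3 of the family, 136, 189, 163 and 108, with H3K4me2 of 17, 13, 4 and 11. Cyp4f39, a fatty acid omega-hydroxylase of skin, had H3K27me3 of 80, 98, 113 and 65 with H3K4me2 of 17, 15, 4 and 5. Cyp4f14 had H3K27me3 of 72, 99, 100 and 74 and almost no H3K4me2, with 2, 8, 0 and 2. Cyp4f17 had the reverse pattern, with H3K4me2 of 66, 31, 26 and 52 and H3K27me3 of 13, 7, 8 and 8. The other family 4 genes with H3K4me2 in all 4 libraries were Cyp4f13, at 22, 13, 13 and 41, and Cyp4f16, at 19, 14, 3 and 12.

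Few genes of the family 2 arrays carried a mark. Of the 40 members in subfamilies 2A, 2B, 2C, 2D and 2J, 26 were above the reference level for neither mark in any library, against 16.9% of all symbols, 4 were above in H3K4me2 in all 4 libraries, against 66.9%, and none was above in H3K27me3 in all 4, against 15.5%. Subfamily 2C, with 15 genes on chromosome 19, never exceeded 8 in H3K4me2 or 17 in H3K27me3. Of the 39 array genes with a window, 27 had under 90% unique words, and 20 of these 27 had neither mark, whereas in the 12 more unique ones 5 had neither. The 4 with H3K4me2 in all libraries were Cyp2d22, with H3K4me2 of 43, 28, 10 and 16, Cyp2j6, with 40, 36, 13 and 20, Cyp2j9, with 19, 26, 12 and 27, and Cyp2j13, with 26, 16, 8 and 26. The 2J enzymes make epoxides of arachidonic acid. H3K27me3 at these 4 genes stayed between 4 and 15.

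Beside Cyp2r1, 7 genes of family 2 stand alone in their subfamily, some of them close to the 2A and 2B genes on chromosome 7, and included 1 with H3K4me2 in all 4 libraries and 1 with H3K27me3. Cyp2u1, which hydroxylates long-chain fatty acids in brain, had H3K4me2 of 62, 44, 49 and 88, the highest member value at PN15, with H3K27me3 of 14, 12, 11 and 7. Cyp2s1 had H3K27me3 of 139 (117 to 164), 145 (125 to 168), 223 (207 to 240) and 178 (154 to 204), with H3K4me2 of 23, 17, 11 and 7. At PN15 its H3K27me3 was within the counting interval of the highest member, Cyp24a1. Cyp2w1, last of the 10 members with the largest summed H3K27me3, had 52, 69, 39 and 24.

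In family 3, the main drug-metabolizing enzymes of liver and gut, 7 of 9 windows had under 90% unique words. H3K4me2 was above the reference level in no library at any of the 9 members and reached at most 8. H3K27me3 was above in all 4 libraries at Cyp3a13, with 25, 34, 43 and 42, and in no library at the other 8. Cyp3a13 also lies apart from the rest of the family on chromosome 5. The Cyp3a41a entry used and Cyp3a41b had identical values in all 8 libraries, while a second Cyp3a41a entry had H3K27me3 of 8, 8, 1 and 8 in place of 18, 7, 1 and 12. Only 15.5% and 15.3% of the 32-base words in their windows occur once in the genome, so few reads can be assigned to 1 of these copies.

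None of the 6 enzymes of steroid hormone synthesis had H3K4me2 above the reference level in all 4 libraries, and the highest value among them was 11, at Cyp11a1 at E17.5, the enzyme of side chain cleavage. Cyp17a1, the 17-alpha-hydroxylase, had H3K27me3 of 38, 41, 42 and 37, above in all 4. Cyp26b1, which degrades retinoic acid, had H3K4me2 of 13, 14, 3 and 8 and H3K27me3 of 35 (24.4 to 48.7), 18 (11.3 to 27.3), 18 (13.8 to 23.5) and 20 (12.7 to 30.1), above the reference level only at E17.5. The orphan enzyme Cyp20a1, whose substrate is unknown, had H3K4me2 of 53, 41, 37 and 74 and H3K27me3 of 4 to 6.

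The marks of neighbouring members within an array differed. In the array of subfamily 4F on chromosome 17, the start of Cyp4f39, with mean H3K27me3 the highest of the array, lies 53.7 kb from that of Cyp4f17, with the highest H3K4me2, and Cyp4f14 lies 30.3 kb from Cyp4f13. On chromosome 15, Cyp2d22 at the end of the 2D array is 13.8 kb from Cyp2d11, which had H3K4me2 of 3, 3, 0 and 1. On chromosome 4, Cyp2j6 and Cyp2j9 lie 37.8 kb apart and both carried H3K4me2, whereas Cyp2j8, 46.3 kb before them, had 4, 4, 0 and 3, and Cyp2j5, 72.6 kb after them, had 1, 5, 0 and 4. A second array on that chromosome starts with Cyp4x1 and ends with Cyp4b1, and Cyp4x1 had more H3K27me3 in every library than the members of subfamily 4A between them, which reached at most 31, whereas Cyp4b1 had more than they did at PN7 and PN15 only, its 13 and 18 at E17.5 and PN1 lying among their values. Cyp2s1 on chromosome 7 is 81.1 kb from Cyp2b10, with H3K27me3 of 11, 17, 14 and 16. The neighbours were chosen after their values were seen, and the whole arrays are plotted for that reason. Unique words made up 49.5% of the window at Cyp2d11 against 98% at Cyp2d22, and 56.6% at Cyp2j8 against 93.6% at Cyp2j6. In the 4A windows they made up 29.3% to 98.9%, against 87.2% at Cyp4x1. Cyp2j5, at 93.1%, and the 4F genes named, at 96.2% to 99.3%, had more unique windows. The part of removed reads with several positions in these differences was not tested.

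**Figure D2:**
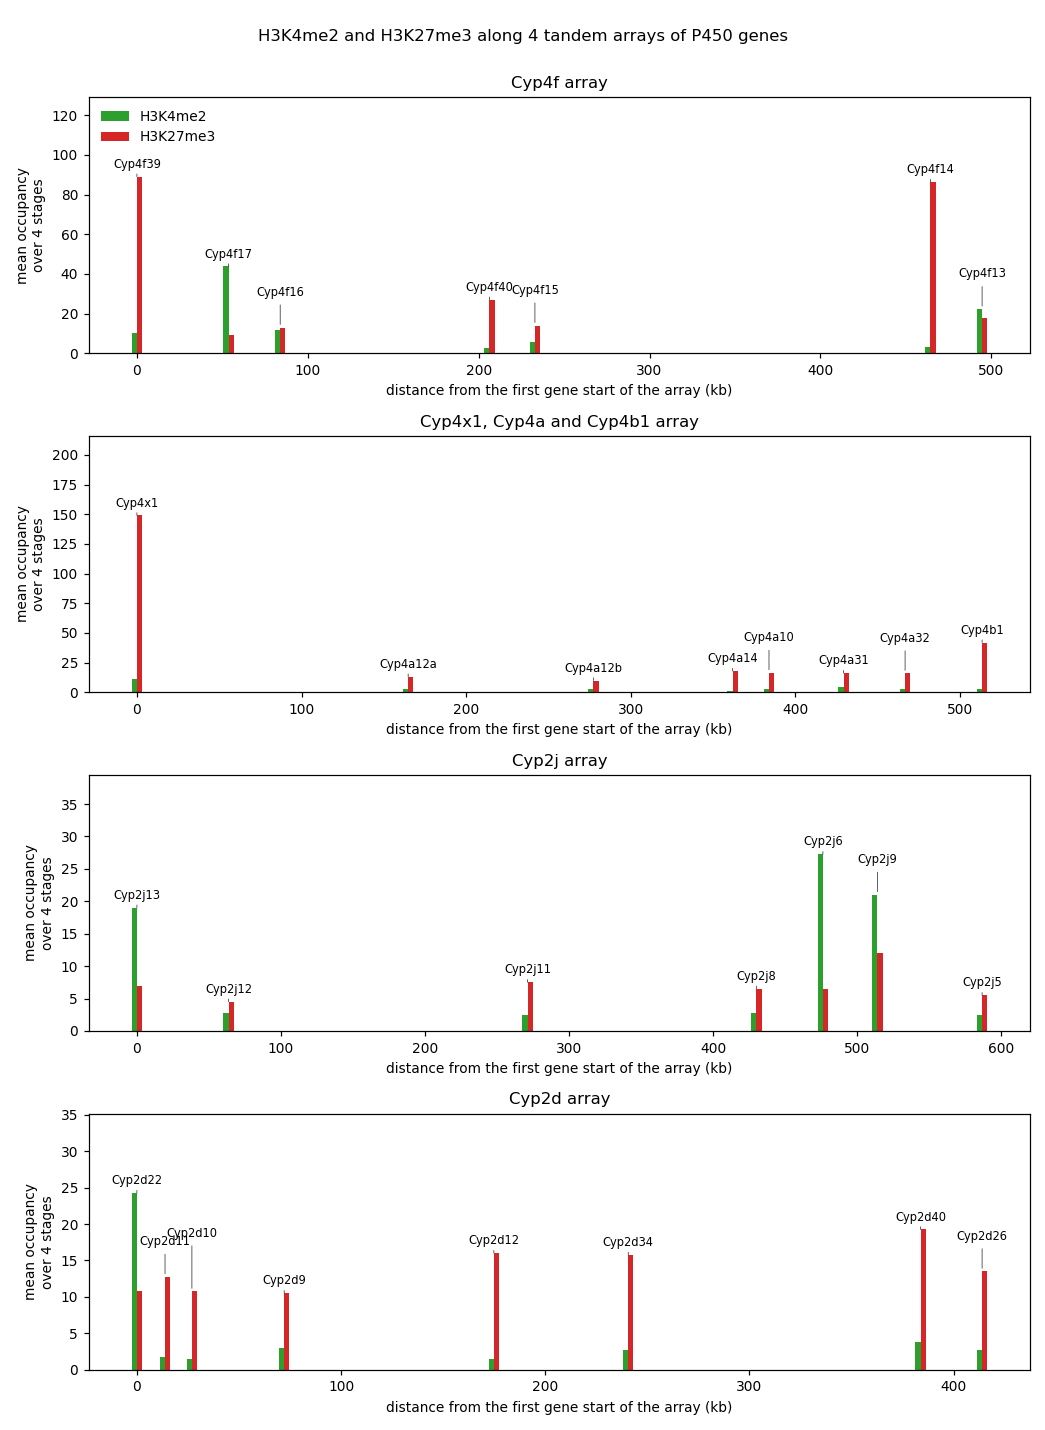
Mean normalized occupancy over the 4 stages of H3K4me2 (green) and H3K27me3 (red), 1 pair of bars for each member, at its distance in kb from the first member start of 4 tandem arrays; each value is the mean of 4 libraries, 1 a stage, with no replicates. H3K27me3 is high at Cyp4f39 and Cyp4f14 and at Cyp4x1, and H3K4me2 at Cyp4f17, Cyp4f13, Cyp2j6, Cyp2j9, Cyp2j13 and Cyp2d22. Cyp2j6 and Cyp2j9 are neighbours, as are Cyp4f39 and Cyp4f17, which carry different marks.

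Changes between stages were taken as log2 of (occupancy + 1) of the later over the earlier stage, less the median of all symbols tested, for symbols with a mean of at least 10 over both libraries. A change past 1, that is 2-fold, was called. Between E17.5 and PN15 the H3K4me2 of all 13944 symbols tested moved by a median of 0.19 before this subtraction. Of the 23 members tested, 7 were lower, or 30.4%, against 9.27% of all symbols tested, and 1 was higher, or 4.35%, against 2.76%. Of the 7, Cyp2s1 and Cyp4f39 were under 10 at PN15 and passed the filter through E17.5, and Cyp4f39, at 5, then had to be called. Without calls that the filter fixed in this way, 6 of 22 members were lower, or 27.3%, against 8.11% of all symbols. In windows with at least 90% unique words, 7 of 20 were lower, or 35%, against 9.83%. The median of the 23 members was -0.78 on this scale, with 16 below and 7 above 0. The other 72 members had a mean under 10 and were not tested.

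The members with lower H3K4me2 at PN15 came from several classes. Cyp2s1 went from 23 to 7, a log2 change of -1.77 (95% counting interval -3.31 to -0.74), and Cyp4f39 from 17 to 5, also -1.77 (-3.69 to -0.60). Cyp2d22 went from 43 to 16, -1.56 (-2.49 to -0.83), and Cyp27a1 from 38 to 15, -1.48 (-2.44 to -0.72). These 4 and Cyp24a1 (-1.38), Cyp4v3 (-1.27) and Cyp2j6 (-1.15) had counting intervals that left out 0, though none lay wholly past 2-fold. As deposited, Cyp4v3 was lower at each later stage, at 54, 44, 38 and 25. Cyp2r1 was the one member past 2-fold upwards, from 14 to 35, 1.07 (0.37 to 1.93), or 0.90 with a pseudocount of 5. Of the 11 members with a mean H3K4me2 of at least 30, 2 were lower, against 4.84% of all symbols at that level, and none was higher, against 2.5%. Among these, Cyp46a1 (0.01), Cyp20a1 (0.28), Cyp7b1 (0.29), Cyp2u1 (0.31) and Cyp1a1 had intervals that include 0. Short of 2-fold, Cyp1b1 (-0.90, -1.40 to -0.45), Cyp4f17 (-0.53, -1.03 to -0.05) and Cyp39a1 (-0.48, -0.89 to -0.09) lay below 0 and Cyp4f13 (0.68, 0.05 to 1.37) above it. The summed H3K4me2 of the endothelial markers was 29 at E17.5 and 8 at PN15, and that of the rod markers 85 and 527. That of the hepatocyte genes was 47 and 15. Of the Mueller glia markers, Rlbp1 went from 37 to 6, Slc1a3 from 88 to 61 and Glul from 79 to 111. The part of these cell types in the P450 values was not tested.

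From E17.5 to PN1, none of 24 members tested passed 2-fold in H3K4me2, against 0.803% of all symbols higher and 0.401% lower. From PN1 to PN7, 3 of 19 were lower (Cyp24a1, Cyp2d22 and Cyp2j6), or 15.8% against 8.43%. Of these, Cyp24a1, from 20 to 8, passed the filter through PN1 alone, and its interval (-2.61 to 0.01) included 0. From PN7 to PN15, 3 of 18 were lower (Cyp1b1, Cyp27a1 and Cyp4v3), or 16.7% against 12.5%. No member was higher in either of these steps, against 7.56% and 8.31% of all symbols. The last step of Cyp1b1, from 86 to 51, was -1.55 (-2.09 to -1.04), the only H3K4me2 change of a member with a counting interval wholly past 2-fold. All symbols tested moved up by a median of 0.81 in that step, and as deposited the change of Cyp1b1 was -0.74. Without the subtraction of the median, 4 members were higher and 0 lower from PN7 to PN15, and 2 were lower from E17.5 to PN1.

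**Figure D3:**
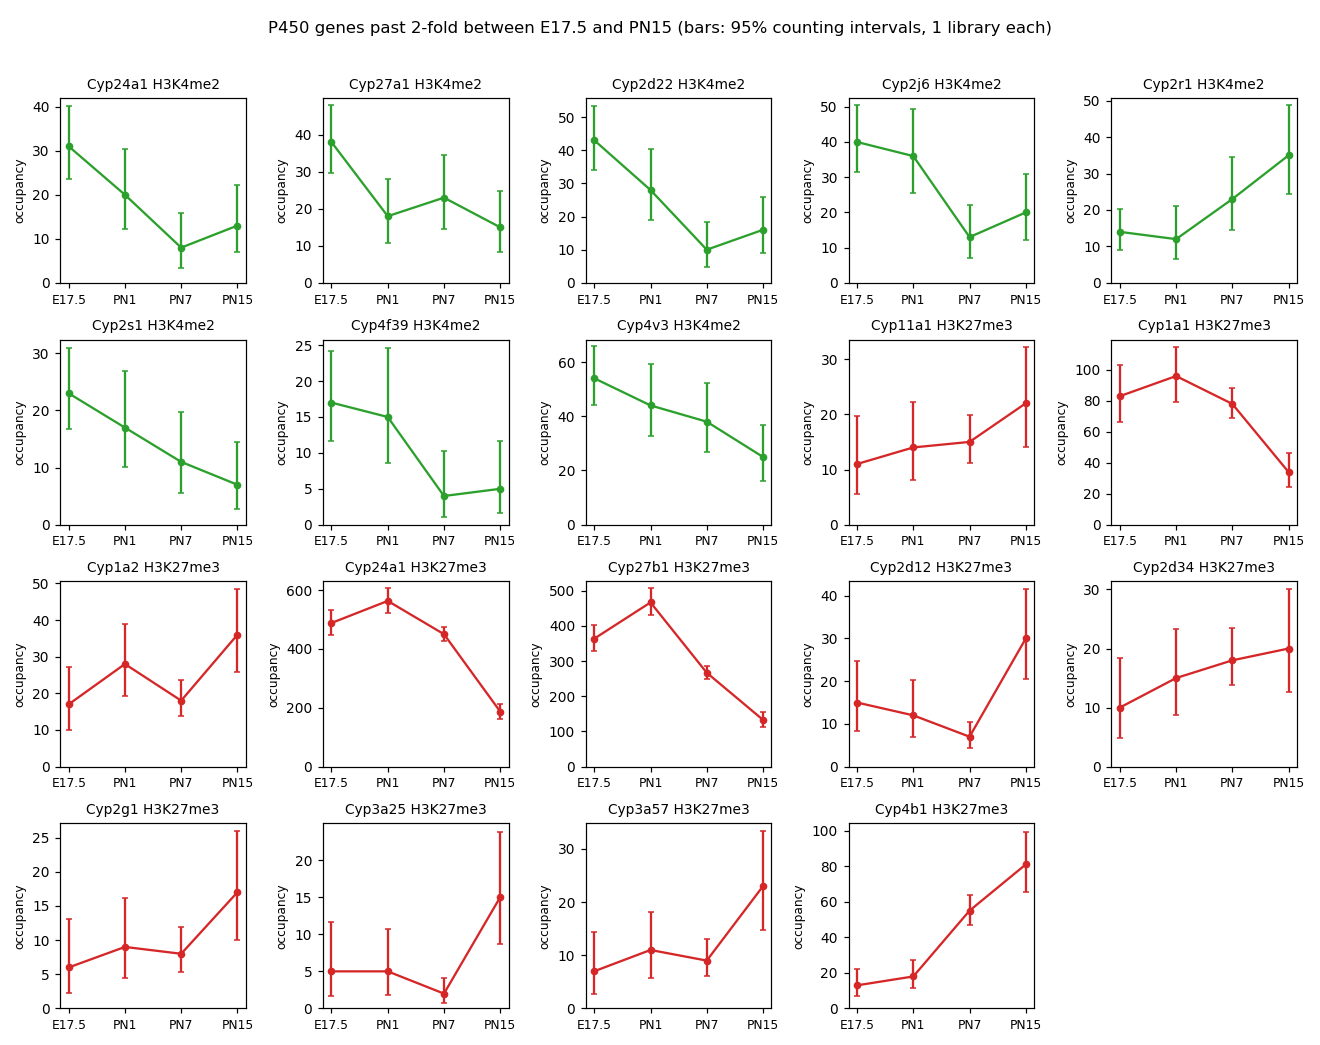
Normalized occupancy by stage for the 8 members past 2-fold in H3K4me2 (green) and the 11 past 2-fold in H3K27me3 (red) between E17.5 and PN15; points are single libraries and bars are 95% Poisson counting intervals, not replicate error. H3K4me2 of Cyp4v3 falls from 54 to 25, and H3K27me3 of Cyp4b1 climbs from 13 to 81 while that of Cyp24a1 drops from 488 to 187.

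In H3K27me3 between E17.5 and PN15, 8 of 72 members tested were higher, or 11.1%, against 13.4% of all symbols tested, and 3 were lower, or 4.17%, against 14.8%. Cyp3a25 and Cyp2g1, at 5 and 6 at E17.5, passed the filter through PN15 and had to be called. Without such calls, 6 of 70 members were higher, or 8.57%, against 11.1% of all symbols. Without the subtraction of the median, 5 were higher and 4 lower. Cyp4b1, which activates some lung toxicants, had 13 (6.92 to 22.2), 18 (11.3 to 27.3), 55 (47.2 to 63.9) and 81 (65.5 to 99.5), with H3K4me2 of 1 to 4. Its change of 2.67 (1.92 to 3.72) was the largest among the members tested over this span and lay wholly past 2-fold. The change from PN1 to PN7 was 1.71 (1.12 to 2.47). Over the same span H3K27me3 went from 8 to 136 at Rlbp1 of Mueller glia. At the other Mueller glia markers it went from 13 to 5 (Glul) and from 14 to 23 (Slc1a3). At the hepatocyte genes it went from 7 to 62 (Ttr), from 5 to 15 (Alb) and from 12 to 20 (Apoa1). What these cell types contribute was not tested. Cyp1a2 went from 17 to 36, 1.16 (0.35 to 2.10). The other 6 higher members, Cyp3a57, Cyp3a25, Cyp2g1, Cyp2d12, Cyp11a1 and Cyp2d34, had changes of 1.05 to 1.70 from E17.5 values of 5 to 15, where Cyp3a57, at 7, also passed the filter through PN15 alone, and the interval of Cyp2d34 included 0. Of these 6, Cyp2d12 alone was above the reference level at PN15, at 30 against 29. With a pseudocount of 5 the changes of Cyp1a2 (0.99), Cyp11a1 (0.85), Cyp2d12 (0.90) and Cyp2d34 (0.83) fell short of 2-fold.

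The 3 members with lower H3K27me3 at PN15 were Cyp27b1 (-1.33, -1.62 to -1.06), Cyp24a1 (-1.26, -1.51 to -1.03) and Cyp1a1 (-1.14, -1.75 to -0.60, or -0.78 with the mean of its 2 entries). These were among the most marked members, and the same was seen over all genes. Of the 1358 symbols with a mean H3K27me3 of at least 100 at E17.5 and PN15, 52.5% were lower past 2-fold and 1.25% higher, with a median change of -1.03. The 5 members at that level had a median of -0.49, and 2 of 5 were lower. Cyp1b1 (-0.49, -0.85 to -0.14) and Cyp4x1 (-0.21, -0.57 to 0.15) changed by less, and Cyp2s1 was above its E17.5 level, at 0.47 (0.16 to 0.80). The decrease at Cyp24a1 and Cyp27b1 was thus close to that of all genes with much H3K27me3.

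Between PN7 and PN15, 12 of 50 members tested were higher in H3K27me3, or 24%, against 10.5% of all symbols tested, and 2 were lower, or 4%, against 8.01%. Of these 12, 9 belong to the arrays of subfamilies 2A, 2D, 3A and 4A, and several had lower values at PN7 than at the other stages. Cyp2a5 had 25, 14, 0 and 24 over the 4 stages, Cyp21a1 had 22, 15, 3 and 27, Cyp2d11 had 13, 12, 4 and 22, and Cyp4a32 had 17, 9, 6 and 31, examples chosen after their values were seen. With Cyp2a12 these are 5 members with so little H3K27me3 at PN7 that they passed the filter through PN15 alone and had to be called. Of the other 45 tested, 7 were higher, or 15.6%, against 7.09% of all symbols without such calls. Apart from Cyp1a2, at 18, these 7 were at 7 to 9 at PN7 and also passed the filter through PN15 alone. The filter thus bears on this share too. In the 11 members with under 50% unique words, the median H3K27me3 was 13, 10, 1 and 12 over the stages, and 10 of the 11 were at 2 or less at PN7 against 0 of 11 at PN1. In the 46 members with at least 90%, the medians were 14, 13.5, 14.5 and 16.5, and none was at 2 or less at PN7. Of the 31 of these that were tested, 2 were higher between PN7 and PN15, Cyp1a2 and Cyp2g1, or 6.45%, against 6.27% of all symbols with such windows. Levels taken with no filter showed the same split in all symbols, of which 23.4% were at 2 or less at PN7 in windows with under 90% unique words and 1.58% in the others, against 5.53% and 4.32% at PN1. The low PN7 values moved with the uniqueness of the window, in the members and in all symbols. Whether reads with several positions were treated differently in that library was not tested. At least 90% unique words were found at 18 of the 21 members with H3K4me2 in all 4 libraries, or 85.7%, against 87.8% of all symbols in that state, at 9 of the 11 with H3K27me3 in all 4, or 81.8%, against 93%, and at 7 of the 37 with neither mark and a window, or 18.9%, against 53.2%.

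**Figure D4:**
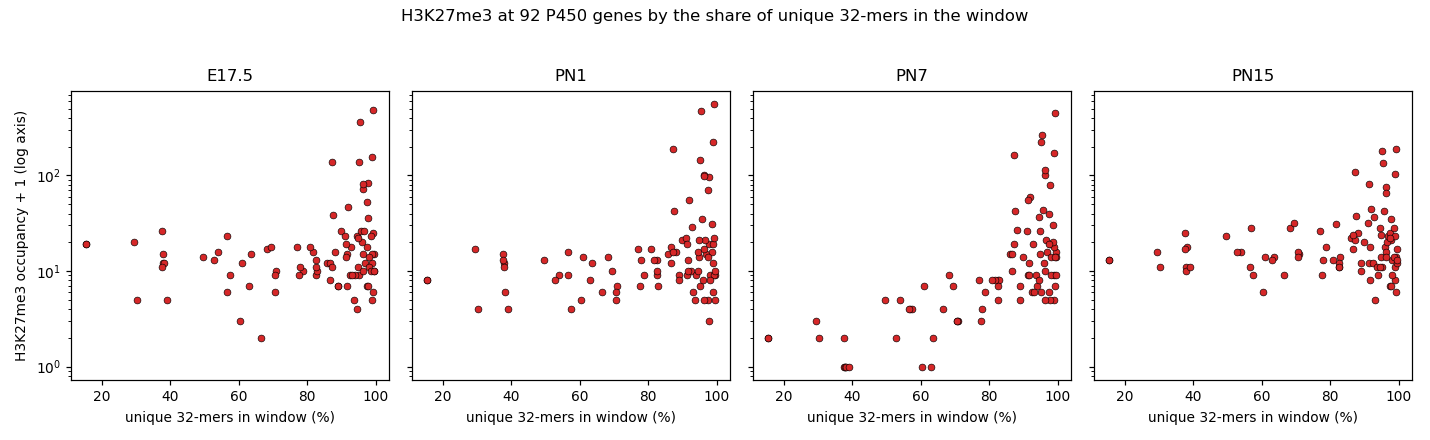
H3K27me3 occupancy + 1 on a log axis against the share of unique 32-base words in the 5 kb window, for 92 P450 genes, 1 panel a stage and 1 point a gene. In the PN7 panel the genes under 50% unique lie at occupancies of 0 to 4, whereas in the other 3 panels they lie between 3 and 25.

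The remaining steps in H3K27me3 held few calls. From E17.5 to PN1, 5 of 60 members were lower, or 8.33% against 3.17%, and none was higher against 1.52%. Among the 5 was Cyp26b1, from 35 to 18 (-1.05, -1.92 to -0.27). The others, Cyp2b19, Cyp2d26, Cyp3a41a and Cyp3a41b, were at 7 or 8 at PN1 and passed the filter through E17.5 alone. The 5 include Cyp3a41a and Cyp3a41b, whose values are identical, and the count was 3 with a pseudocount of 5 and 3 among the members with at least 90% unique words. From PN1 to PN7, Cyp4b1 and Cyp2f2 were higher, 2 of 42 or 4.76% against 6.68%, and none was lower against 6.01%. Without the subtraction of the median, 2 were also lower in this step. Cyp2f2, an enzyme of lung and airway, had H3K27me3 of 22, 15, 36 and 27.

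The level of the marks varied with the CpG content of the window, a feature that the choice of members did not use. The 5 kb windows held a median of 74 CpG at the 21 members with H3K4me2 in all 4 libraries, 40 at the 23 with it in 1 to 3, and 25 at the 48 with it in none. For H3K27me3 the medians were 74, 45 and 27, at 11, 16 and 65 members. Across the 92 genes, Spearman's coefficient was 0.589 between CpG number and summed H3K4me2 and 0.46 with summed H3K27me3, and Pearson's r on log2(sum + 1) was 0.703 and 0.547. These describe genes within the same libraries, which share base composition and duplicated sequence within arrays, and genes are not replicates. Of the 12 members with the most CpG, 82 or more, 10 had H3K4me2 in all 4 libraries, against 93.1% of all symbols with as many, and 5 had H3K27me3 in all 4, against 20.1%. Of the 52 with under 40 CpG, 2 had H3K4me2 in all 4, or 3.85%, and 2 had H3K27me3, against 4.54% and 2.61% of all symbols. The relation with CpG was thus found in all symbols and not in the P450 genes alone. CpG number did not fix which mark was carried, as Cyp46a1, with 167 CpG, had at most 16 in H3K27me3, while Cyp24a1, with 170, had up to 563.

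**Figure D5:**
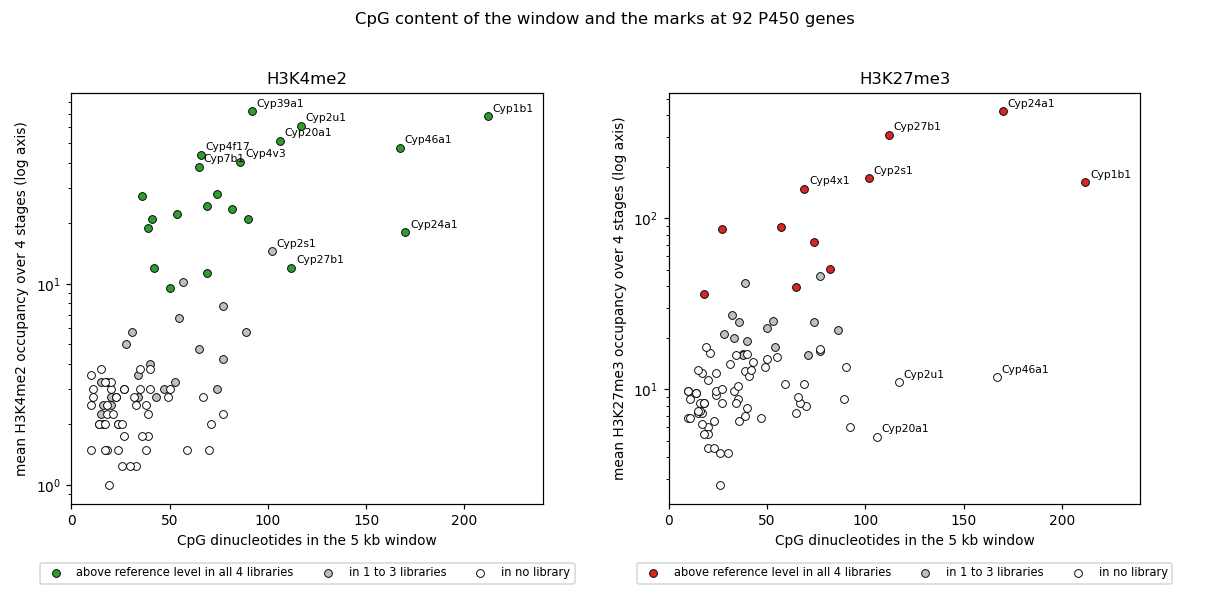
Mean occupancy over 4 stages on a log axis against the number of CpG dinucleotides in the 5 kb window, for H3K4me2 (left) and H3K27me3 (right) at 92 P450 genes, coloured by the number of libraries above the reference level. Filled green points lie at 36 CpG or more, and Cyp1b1, at 212 CpG, is high in both panels, whereas Cyp46a1 and Cyp20a1 are high for H3K4me2 only.

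RefSeq promoters of 300 bases, 250 before and 50 after the start, were matched for 72 of the 95 members. Members without one held 10 to 170 CpG in the 5 kb window, where a window was found. The most were at Cyp24a1 (170), Cyp2u1 (117) and Cyp39a1 (92), so the shares given here do not describe all members. The 72 promoters held a median of 2 CpG, and 11.1% of them had at least 10. In all 27025 promoters, also of genes outside the deposited table, the median was 7 and the share 43.9%. Shares of marked symbols cover only symbols of the deposited table with a promoter. Of the 8 members with at least 10 CpG, 6 had H3K4me2 in all 4 libraries, against 94.2% of 8530 symbols with such promoters. Of the 64 with fewer, 8 did, or 12.5%, against 24.7% of 5435 symbols. The letters TATAAA, the core of a TATA box, on either strand were in 43.1% of the members' promoters (31), against 14.2% of all promoters. H3K4me2 in all 4 libraries was found at 2 of these 31 members, or 6.45%, against 33.9% of all symbols with the letters, and at 12 of the 41 without them, or 29.3%, against 72.1%. The core GCGTG, bound by the aryl hydrocarbon receptor with its partner, on either strand was in 19.4% of the members' promoters against 32.5% of all, and it can overlap the CpG counted. Of the promoters printed above in part, that of Cyp46a1 has 31 CpG in the 300 bases and that of Cyp2c29 has 2, the members' median.

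Genes that work together with the P450 enzymes carried H3K4me2 in every library. The list of 10 electron donors and partners also holds Alas1, an enzyme of heme synthesis, and the heme-binding proteins Pgrmc1 and Pgrmc2. All 10, among them Por, which passes electrons to the microsomal enzymes, and Fdxr and Fdx1, which serve the mitochondrial ones, had H3K4me2 above the reference level in all 4 libraries, as did 66.9% of all symbols, and none had H3K27me3 in all 4, against 15.5%. None of the 10 passed 2-fold in H3K4me2 between E17.5 and PN15, and their largest changes were those of Por (0.56, from 55 to 93), Fdx1l (0.44) and Cyb5r3 (0.36). In H3K27me3, 3 of them could be tested and none was called, with Fdxr at -0.88, Cyb5 at -0.69 and Fdx1 at -0.07. Their median H3K4me2 change was 0.21. Of genes with a mean of at least 30, the 11 P450 members had a median of -0.23 and all symbols 0.05.

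Of the 15 sensors and nuclear receptors that control P450 genes, 9 had H3K4me2 and 6 had H3K27me3 above in all 4 libraries, beside the same 66.9% and 15.5% of all symbols. In H3K4me2, 1 of 10 tested was higher and 2 were lower, against 2.76% and 9.27% of all symbols tested, with a median of 0.07. Ahr, the aryl hydrocarbon receptor, had H3K4me2 of 51, 33, 40 and 126 (1.10) and H3K27me3 of 28, 35, 48 and 10 (-1.28), so that its marks moved in opposite directions by PN15. Its repressor Ahrr had H3K4me2 of 16, 8, 5 and 5 (-1.69) with H3K27me3 of 76, 100, 93 and 58, and Nr5a2, a regulator of bile acid and steroid enzymes, went from 35 to 18 in H3K4me2 (-1.11). In H3K27me3, 1 of 14 tested was higher, Hnf4a, from 11 to 28 (1.39), and 2 were lower, Ahr and Ppara, the fatty acid sensor that controls family 4, from 327 to 118 (-1.34), against 13.4% and 14.8% of all symbols tested.

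Of the 9 conjugating enzymes and genes of steroid supply, 3 had H3K4me2 and 2 had H3K27me3 above in all 4 libraries, beside those shares. None of 3 tested passed 2-fold in H3K4me2, with Ephx2 at -0.84, Gstm1 at -0.82 and Ephx1 at 0.31. In H3K27me3, Hsd17b1, an estrogen-forming enzyme, went from 336 to 96 (-1.68), Star, which brings cholesterol to the mitochondrion, from 14 to 27 (1.02), and Gstm1 had a change of 0.57. Of 3 P450 genes with names of another form, Cyp51 and Ptgis had H3K4me2 in all 4 libraries and Tbxas1 did not. Cyp51, the lanosterol demethylase of cholesterol synthesis, had H3K4me2 of 59, 47, 30 and 76 with H3K27me3 of 0 to 10. Ptgis, prostacyclin synthase, had 27, 21, 9 and 11 (-1.41) with H3K27me3 of 94, 112, 162 and 78.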

How the data were processed

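ChIP-Seq of mouse retina gave 1 library each of H3K4me2 and H3K27me3 at E17.5, PN1, PN7 and PN15. The authors mapped reads with Bowtie 0.12.4 to mm9, removed reads with several positions, assumed fragments of 190 bp, summed reads within 2.5 kb of each RefSeq TSS and normalized the sums to the total mapped reads. These sums, rounded by the authors to whole numbers, are the deposited scores, for 25152 entries. Of the 10 samples, 2 (rd1/rd1 at PN30 and anti-GFP at PN56) have no column and were not analysed here. The values are not counts, so no count model was used.

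Values were handled with Python 3.11.15, pandas 2.3.3, numpy 2.4.6 and scipy 1.17.1, and plotted with matplotlib 3.10.9. The worth of 1 read was read from the periodic excess in the rounded values; on simulated data the method recovered 6 of 6 steps. A gene was called above the reference level past the 95th percentile of olfactory receptor symbols. Changes used a pseudocount of 1, a mean of at least 10 and a 2-fold limit after subtraction of the median over all symbols tested. Unique 32-base words and CpG were counted in mm9 around RefSeq starts (70 members) or GENCODE vM1 starts (22 members), and 3 members had no window there. For all other symbols words and CpG were counted around GENCODE starts, a comparison added after the data were seen, as was the removal of calls fixed by the filter. Promoters came from RefSeq and were placed by exact match.

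Members, gene lists and the comparisons were chosen with earlier results of these data known. The text names members of classes of 5 or fewer genes, those with H3K4me2 above the reference level in all 4 libraries, the 10 with the largest summed H3K27me3, those called between E17.5 and PN15 (at most 10 for each mark and direction) and, for the lists of related genes, the 3 largest changes; others named are said to be chosen after their values were seen or stand in a count of 5 or fewer. One gene of the list of rod markers is not reported here. Alternatives changed the percentile, the reference genes, the pseudocount, the filter, the centring and the entry used.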

Additional observations from a re-analysis of the deposited data

How the results depend on the processing

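None of the 19 single changes called from E17.5 to PN15 turned its sign with a pseudocount of 5, without centring or with the mean over entries; single changes of the shorter steps were not recomputed. Of the counts under the alternatives, 89 stayed within 1.5 times of the reported one and 32 did not, and in 2 steps the balance of higher and lower calls turned, as given here. With the 99th percentile of the olfactory receptors, 63 members had neither mark in any library. With the 95th percentile of the vomeronasal receptors, 25 had neither, 20 had H3K27me3 in every library and 42 in none. A pseudocount of 5 left 0 members higher in H3K4me2 from E17.5 to PN15, and in H3K27me3 3 lower from E17.5 to PN1, 1 lower from PN7 to PN15 and 4 higher from E17.5 to PN15. Without centring, H3K4me2 had 2 lower from E17.5 to PN1 and 4 higher and 0 lower from PN7 to PN15 (reported, 0 and 3), and H3K27me3 had 2 lower from PN1 to PN7 and 5 higher from E17.5 to PN15. Without the filter on low values, H3K4me2 had 30 higher and 1 lower from E17.5 to PN1, 2 higher and 59 lower from PN1 to PN7, 20 higher and 4 lower from PN7 to PN15, and 14 higher and 20 lower from E17.5 to PN15, and H3K27me3 had 2 higher from E17.5 to PN1, 4 higher and 20 lower from PN1 to PN7 (reported, 2 and 0), and 34 higher from PN7 to PN15; more members, near 0, are tested by construction. The mean over entries gave 1 lower in H3K27me3 from PN7 to PN15. In 3 alternatives added after the data were seen, leaving out calls fixed by the filter gave 7 higher in H3K27me3 from PN7 to PN15, leaving out the PN7 libraries moved none of the 5 counts of states by over 1.5 times, and keeping the 46 members with at least 90% unique 32-base words gave 12 with H3K4me2 in no library, 27 with H3K27me3 in none, 7 with neither (15.2% of the 46 against 42.1% of the 95), and in H3K27me3 3 lower from E17.5 to PN1, 2 higher from PN7 to PN15 and 4 higher from E17.5 to PN15. Of the 19 single changes called from E17.5 to PN15, 5 fell short of 2-fold with a pseudocount of 5, 4 without centring and 1, Cyp1a1 in H3K27me3 (-0.78), with the mean over entries. Where no cause is named, the cause was not tested. No paired analysis was possible because each mark and stage has 1 library. The depth limits values near 0, where 3 reads are worth 0.938 to 3.0.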
